A study of Mus musculus with 48 samples.

Results

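The genes described here encode WNT ligands, R-spondins, frizzled receptors and the LRP co-receptors, 32 of the 21000 protein-coding genes with a curated RefSeq transcript. They comprise 16 ligands, 4 R-spondins, 10 frizzled receptors and 2 LRP genes. *Wnt3*, *Wnt3a* and *Wnt8a* are not among the 32 and were described with the other genes of the pathway. Every peak within 50 kb of a transcription start site of these genes was taken, and peaks that overlapped between lists by at least 1 bp were merged into regions. This gave 399 regions, of 287329 in all. The nearest value inside the limit was a region at 49.7 kb from *Fzd2*, with a peak only in the 8 h Activin list (column 7 of 1.61), and the nearest outside it was a region at 50.1 kb from *Rspo2*, with peaks at 1 h Activin (1.81) and in untreated cells (1.69).

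Chromatin accessibility was measured by ATAC-seq, in which a transposase cuts open DNA and inserts sequencing adaptors, in P19 cells, a mouse embryonic teratoma line. Inhibited cells received 10 µM SB-431542, which blocks the kinases of the Activin, NODAL and TGF-β receptors, overnight and, after washout, for a further 1 h. For acute and prolonged signalling the inhibitor was washed out and 20 ng/ml Activin was added for 1 h or 8 h. Untreated cells received neither agent and carry chronic signalling from the NODAL and GDF3 that they make themselves. Each state had 2 biological replicates. The labels list 12 libraries per state, while the study's methods describe a single library chosen for sequencing per replicate and state. Each deposited list merges both replicates of its state, so a state has 1 value without a spread over replicates, and states were not tested against each other. The states below are given in the order inhibited (SB-431542), acute (1 h Activin), prolonged (8 h Activin) and chronic (untreated).

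WNT proteins are lipid-modified secreted ligands that bind the cysteine-rich domain of frizzled receptors. When an LRP co-receptor is engaged at the same time, β-catenin is spared from destruction and acts with TCF/LEF factors in the nucleus, and R-spondins raise the response by protecting the receptors from turnover. WNT signalling acts with NODAL in the formation of the primitive streak and mesendoderm. Accessibility is not expression, and no RNA was measured in these files. The promoters of the pluripotency genes *Pou5f1*, *Sox2* and *Nanog* were open in all 4 lists, with column 7 between 2.12 and 3.26. The medians over protein-coding genes were 4.25 to 4.56. Promoters were open in all 4 lists for 71.2% of protein-coding genes, so this does not test the identity of the cells.

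Column 7 of the lists, the fold enrichment, is the mean pileup of reads over a peak divided by the local background of the same merged sample. The lists held 209212 to 234758 peaks covering 161 to 186 Mb. They give no read counts. The study states a range of reads per merged sample but no value per state, so the depth of each list is not known. The 1st percentile of the local background estimated from columns 7 and 8 was 29.0, 27.0, 23.0 and 24.7 reads, highest for SB-431542. Its part in the differences below was not tested. Column 7 was compared between lists only as a percentile among the 162505 regions shared by the 4 lists.

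The promoter sequences of a closed ligand gene and of open genes are shown first because promoter state is the first result. RefSeq promoter sequences (build GRCm38.p6, the assembly of mm10) were held for 21 of the 32 genes. The 250 bases before the start site are printed 5′ to 3′ on the strand of the gene, with capitals marking matches to any motif that was searched. *Wnt8b* had no open promoter. With SB-431542, *Wnt9b* had the highest column 7 of the ligands and *Fzd9* the lowest of the frizzled genes. The *Fzd9* promoter percentile of column 7 was higher in every signalling state. By a pileup estimated from columns 7 and 8 its percentile differed from SB-431542 by only 0.02, -2.30 and -2.80 points.

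Wnt8b, chr19:44493222-44493471, plus strand: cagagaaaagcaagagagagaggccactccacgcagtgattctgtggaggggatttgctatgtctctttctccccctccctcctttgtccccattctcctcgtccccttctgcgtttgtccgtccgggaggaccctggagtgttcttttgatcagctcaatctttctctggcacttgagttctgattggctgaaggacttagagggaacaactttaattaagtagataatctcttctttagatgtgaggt
Wnt9b, chr11:103749822-103750071, minus strand: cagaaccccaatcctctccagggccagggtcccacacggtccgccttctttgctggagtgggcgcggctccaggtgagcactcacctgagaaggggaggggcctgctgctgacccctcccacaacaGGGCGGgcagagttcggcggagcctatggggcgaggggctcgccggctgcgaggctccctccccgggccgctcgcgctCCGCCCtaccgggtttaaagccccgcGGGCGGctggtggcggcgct
Fzd9, chr5:135251048-135251297, minus strand: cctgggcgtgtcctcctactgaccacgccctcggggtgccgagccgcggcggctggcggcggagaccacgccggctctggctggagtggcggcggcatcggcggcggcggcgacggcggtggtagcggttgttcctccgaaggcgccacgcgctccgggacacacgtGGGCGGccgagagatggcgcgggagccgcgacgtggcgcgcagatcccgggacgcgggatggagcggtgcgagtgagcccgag

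The *Wnt8b* sequence held no match and had a GC content of 48.4%, against 72.0% for *Wnt9b*, with 3 GC boxes (GGGCGG, the site of SP and KLF factors), and 76.4% for *Fzd9*, with 1 GC box. Over the 24 promoter entries of the 21 genes, counted from 250 bases before to 50 bases after the start site, the median GC content was 71.2% (range 48.3% to 84.3%), against 52.7% over all 32851 entries. All entries together cover 27025 genes, more than the 21000 protein-coding genes used as background elsewhere. The median ratio of observed to expected CpG was 0.82, against 0.38 over all entries. *Wnt8b* was the lowest of the 24 entries in GC content. Open promoters could be alike in this. The 250 bases before the open *Wnt10b* start site also held no match. Entries of the open *Wnt5b* promoters had a GC content of 53% and 55%. Their CpG ratios were 0.19 and 0.31, against 0.35 for *Wnt8b*. *Wnt10a*, the other gene with a closed promoter, had no sequence entry. A GC box was present in 18 of 24 entries (75%), against 35.7% of all promoters of that length. TATAAA was present in 2 of 24 (8.33%, *Fzd1* and *Wnt11*), against 13.6%. CTTTGAT, a TCF/LEF motif, was present in 2 of 24 (8.33%, *Wnt5b* and *Wnt11*), against 3.73%, and TGANTCA (AP-1) in 1 of 24 (4.17%, *Wnt5b*), against 7.81%. No entry held CTTTGAA, GTCTAGAC (SMAD), GTAAACA (FOX), AATCCACA (FOXH1), ATGCAAAT (POU), TGACGTCA (CRE) or the palindromic NRF1 motif, which were in 5.14%, 0.213%, 3.65%, 0.855%, 1.74%, 1.79% and 0.971% of all promoters. All motifs were read on both strands, and no motif contains another.

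The centres of 6 regions away from the promoters are shown for the same reason. They were among the 3 largest rises or the 3 largest falls in at least one comparison with SB-431542. Each is the central 200 bases of a region, on the plus strand of mm10.

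Rspo3, 35.2 kb upstream, chr10:29571553-29571752: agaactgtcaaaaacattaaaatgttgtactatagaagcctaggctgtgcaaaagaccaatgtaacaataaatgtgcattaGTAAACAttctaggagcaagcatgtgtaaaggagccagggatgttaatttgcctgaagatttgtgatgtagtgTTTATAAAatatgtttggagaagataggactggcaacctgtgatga
Fzd9, 29.2 kb upstream, chr5:135280486-135280685: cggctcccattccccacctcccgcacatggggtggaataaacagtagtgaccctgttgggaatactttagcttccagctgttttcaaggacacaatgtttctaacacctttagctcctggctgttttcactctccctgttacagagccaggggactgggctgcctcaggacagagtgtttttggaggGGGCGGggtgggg
Wnt5b, 10.4 kb downstream, chr6:119438269-119438468: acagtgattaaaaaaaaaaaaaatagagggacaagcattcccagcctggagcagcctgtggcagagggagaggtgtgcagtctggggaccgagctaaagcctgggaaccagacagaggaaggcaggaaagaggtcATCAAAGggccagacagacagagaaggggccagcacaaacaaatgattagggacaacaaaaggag
Lrp6, 44.6 kb downstream, chr6:134521169-134521368: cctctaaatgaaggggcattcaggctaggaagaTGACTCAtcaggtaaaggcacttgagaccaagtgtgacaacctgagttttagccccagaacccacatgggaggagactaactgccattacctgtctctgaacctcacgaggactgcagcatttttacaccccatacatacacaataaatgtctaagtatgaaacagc
Wnt9a, 42.7 kb downstream, chr11:59350171-59350370: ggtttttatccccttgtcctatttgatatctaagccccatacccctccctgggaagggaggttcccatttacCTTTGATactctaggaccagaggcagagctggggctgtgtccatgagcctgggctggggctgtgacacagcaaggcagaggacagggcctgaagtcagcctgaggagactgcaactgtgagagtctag
Fzd6, 38.5 kb upstream, chr15:38967179-38967378: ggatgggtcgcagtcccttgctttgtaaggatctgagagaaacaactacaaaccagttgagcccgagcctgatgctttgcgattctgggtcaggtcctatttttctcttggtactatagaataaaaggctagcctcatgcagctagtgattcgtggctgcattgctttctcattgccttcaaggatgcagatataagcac

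The first 3 were higher in at least one signalling state and the last 3 were lower at 8 h and in untreated cells. The *Rspo3* centre held 1 FOX motif and 2 TATAAA matches that overlap each other. The *Wnt5b* and *Wnt9a* centres each held 1 CTTTGAT, the *Fzd9* centre 1 GC box and the *Lrp6* centre 1 AP-1 motif, while the *Fzd6* centre held none of the motifs. In the central 300 bases of the 399 regions, the TCF/LEF motif CTTTGAT was present in 5.26%, against 5.30% of all regions, and CTTTGAA in 9.52%, against 6.63%. AP-1 was present in 13.3%, against 12.1%, FOX in 3.51%, against 4.34%, and the GC box in 14.3%, against 7.75%. The POU motif was present in 1.5%, against 2.73%, FOXH1 in 0.752%, against 1.32%, and TATAAA in 10.5%, against 15.9%. CRE was present in 0.251%, against 0.255%. SMAD and NRF1 motifs were present in none of the 399, against 0.281% and 0.0619% of all regions. The median GC content of these windows was 50%, against 47% over all regions, and 27 of the 57 regions with a GC box overlapped a promoter.

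Promoters were open in all 4 lists for 30 of the 32 genes, against 71.2% of protein-coding genes. A promoter was called open where a peak overlapped the stretch between 1000 bp before and 100 bp after a start site, its window. All 4 R-spondin genes, all 10 frizzled genes and both LRP genes were open in every list, as were 14 of 16 ligand genes. The other 2, *Wnt8b*, a ligand of the developing forebrain, and *Wnt10a*, a ligand of teeth, hair and skin, were open in none, as were 23.6% of protein-coding genes. No gene of the 32 was open in some lists and closed in others. When the centre of a peak had to lie in the window, 15 of the 32 genes were open in all 4 lists, against 35.3% of protein-coding genes.

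The closed promoters had open chromatin beside them. The region nearest to *Wnt8b* lay 4.88 kb upstream at chr19:44487180-44488588, with column 7 of 7.42, 5.57, 6.88 and 6.44 in the 4 states. All 4 values were above the column 7 of every promoter region of the 32 genes in the same list except that of *Fzd6* at 1 h Activin (5.65). At *Wnt10a* a region 1.19 kb upstream, just outside the window, had 1.95, 1.83 and 1.53 with SB-431542, after 1 h and in untreated cells and no peak at 8 h Activin. Another region 2.08 kb downstream, in an intron of *Wnt10a*, had 3.36, 3.52, 2.66 and 2.99.

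The open promoters were broad and lay low in the order of promoters. The strongest promoter region of the 30 genes had a median width of 2640 bp (range 1090 to 6565 bp), against 1587 bp over the 15700 protein-coding genes with a promoter region in the SB-431542 list. Their median percentile of column 7 with SB-431542 was 64.6, against 85.5 for coding genes, and 26 of the 30 lay below the median of coding genes. The same count was 27 at 1 h, 26 at 8 h and 27 in untreated cells. Since column 7 is a mean over the peak, a wide peak and a low mean cannot be told apart from weak cutting at the start site itself. By role, the median percentile with SB-431542 was 54.0 for ligands, 64.3 for R-spondins, 65.6 for frizzled receptors and 79.5 for the LRP genes.

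**Figure D1:**
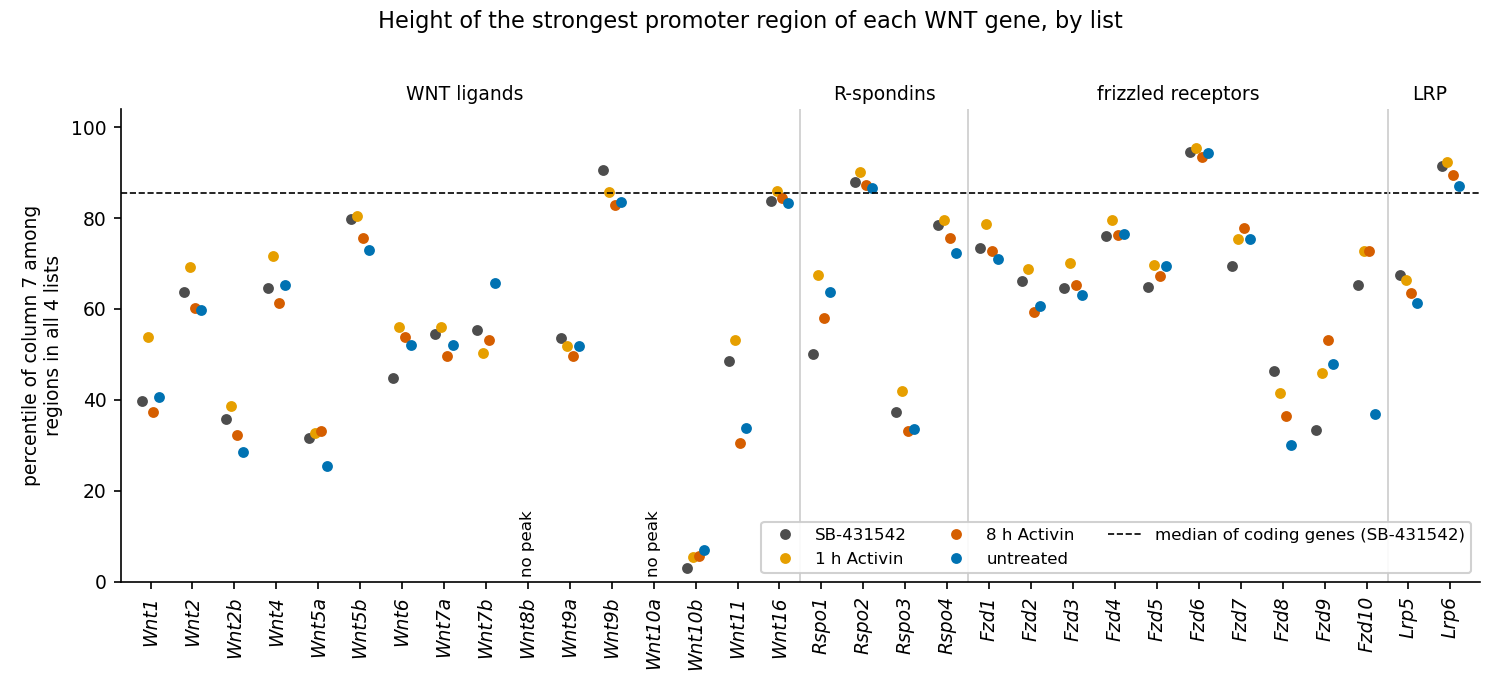
Percentile of column 7 of the strongest promoter region of each gene (vertical axis, among regions in all 4 lists), with 1 point per list, by role. The points of a gene mostly lie close together, 26 of 30 genes lie below the median of coding genes with SB-431542 (dashed, 85.5), and *Wnt8b* and *Wnt10a* have no promoter peak.

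Among the ligands, *Wnt9b*, which induces kidney tubules, had the highest promoter value with SB-431542, and column 7 was 5.20, 4.29, 4.28 and 4.2. *Wnt16*, a regulator of cortical bone, had 4.45, 4.32, 4.40 and 4.18 and was slightly above *Wnt9b* in both Activin lists. *Wnt5b*, a close relative of *Wnt5a*, had 4.12, 3.86, 3.74 and 3.53 at the most upstream of its 3 start sites. These 3 genes lay above the 11 other open ligands in every list. The lowest was *Wnt10b*, a ligand known for bone formation and for restraining fat cells, with 1.66, 1.70, 1.75 and 1.77 over a region of 3083 bp. The other ligands had between 2.07 and 3.33 at their strongest promoter. *Wnt5a*, which drives limb and axis outgrowth through the β-catenin-independent branch, had 2.19, 2.11, 2.21 and 2.07.

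Among the R-spondins, *Rspo2*, needed for limb and lung, had the highest promoter value (4.87, 4.79, 4.68 and 4.46) and *Rspo3*, needed for placental vessels, the lowest (2.32, 2.29, 2.21 and 2.22). *Rspo4*, known in humans for nail formation, had 4.03, 3.80, 3.74 and 3.50. The order of these 3 genes was the same in each list.

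Among the frizzled genes, *Fzd6*, which orders hair follicles through planar cell polarity, was the highest of all 32 genes (5.87, 5.65, 5.55 and 5.49). *Fzd4*, the receptor of norrin in retinal vessels, had 3.86, 3.80, 3.77 and 3.72, and *Fzd7*, a receptor prominent in pluripotent cells, had 3.48, 3.54, 3.88 and 3.66. With SB-431542 the lowest was *Fzd9*, a receptor of the hippocampus and bone, with 2.23, 2.38, 2.72 and 2.56. Of the co-receptors, *Lrp6*, required for canonical WNT signalling in the embryo, had 5.32, 5.08, 4.95 and 4.51, and *Lrp5*, known for its part in bone mass, had 3.38, 3.07, 3.10 and 3.00. *Lrp6* was above *Lrp5* in every list.

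Promoter percentiles moved by more than 10 points against SB-431542 in 9 of the 30 genes (30%) in at least one signalling state, against 16.5% of the 15222 protein-coding genes with a promoter region in all 4 lists. The promoters of the 30 genes also lay lower in the order (64.6, against 85.5), and the part of this in the count was not tested. There were 10 such promoter regions, and in none of them did column 7 and the 3 other measures of height all give a shift of more than 10 points in the same direction. *Fzd9* had percentiles of 33.4, 45.9, 53.2 and 47.9, shifts of 12.5, 19.8 and 14.5 points in the acute, prolonged and chronic states. When height was taken as the estimated pileup rather than column 7, the *Fzd9* shifts were 0.02, -2.30 and -2.80 points. *Wnt1*, a ligand of the midbrain and neural crest, stood at 39.7, 53.9, 37.3 and 40.7, a shift of 14.2 points at 1 h Activin only, and *Wnt6*, a ligand of ectoderm, shifted by 11.3 points at 1 h Activin, which became -0.58 with the estimated pileup. *Wnt7b*, a ligand of the lung, shifted by 10.1 points in untreated cells, with 2 peaks there and 1 in each other list, and by -1.68 with the estimated pileup.

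In several of these promoters the number of peaks in the region changed with the list, and with it column 7. *Fzd10* stood at 65.2, 72.7, 72.7 and 36.9, with 2, 2, 2 and 1 peaks. Its shift of -28.3 points in untreated cells was -4.23 with a mean of column 7 weighted by peak width. *Rspo1*, a factor in ovary determination, stood at 50.1, 67.4, 57.9 and 63.6, with 1, 2, 2 and 2 peaks, and its shift of 13.5 points in untreated cells was -18.5 with the weighted mean. *Fzd8* had 2, 1, 1 and 1 peaks, and its shift of -16.3 in untreated cells was -2.26 with the weighted mean. The middle promoter of *Wnt5b* had 2, 1, 1 and 1 peaks and shifts of -24.1 at 8 h and -14 in untreated cells, which were -11.7 and -1.66 with the weighted mean.

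*Wnt11*, a ligand of cell movements in gastrulation (frog and zebrafish) and of kidney branching, had 2 promoter regions that behaved differently. The upstream one had column 7 of 1.99, 2.39, 2.21 and 1.82 and percentiles of 20.9, 46.1, 33.3 and 9.88, with 1, 2, 2 and 1 peaks. Its shifts of 25.2, 12.5 and -11.0 points were 2.80 at 1 h and -0.04 in untreated cells with the estimated pileup, and -15.3 at 8 h Activin with the weighted mean. The downstream one had 2.63, 2.58, 2.15 and 2.23, with 1 peak in each list. It shifted by -18.2 points at 8 h Activin and by -14.8 in untreated cells, against 0.12 and -0.13 with the estimated pileup.

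The 32 genes had a median of 13 regions within 50 kb, against 11 for protein-coding genes (interquartile range 7 to 15). *Wnt5b* had the most, 31, with start sites spread over 95 kb, so that its window was wider than that of a gene with 1 start site. Among the ligands *Wnt4*, a ligand of kidney and ovary development, *Wnt8b* and *Wnt16* had the fewest, 7 each. *Fzd2* had 17 and *Fzd3*, a receptor of axon growth, had 6, the most and the fewest of the frizzled genes. *Rspo2* had 15 and *Rspo4* 10 of the R-spondins, and *Lrp6* had 22 against 11 for *Lrp5*. Neighbouring genes shared regions: *Wnt10a* and *Wnt6*, 20.1 kb apart, shared 16, and *Wnt1* and *Wnt10b*, 11.7 kb apart, shared 12. *Wnt9a* shared 10 with *Wnt3a* and *Wnt9b* shared 14 with *Wnt3*, at 16.2 and 24.4 kb. In totals each region was counted once.

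**Figure D2:**
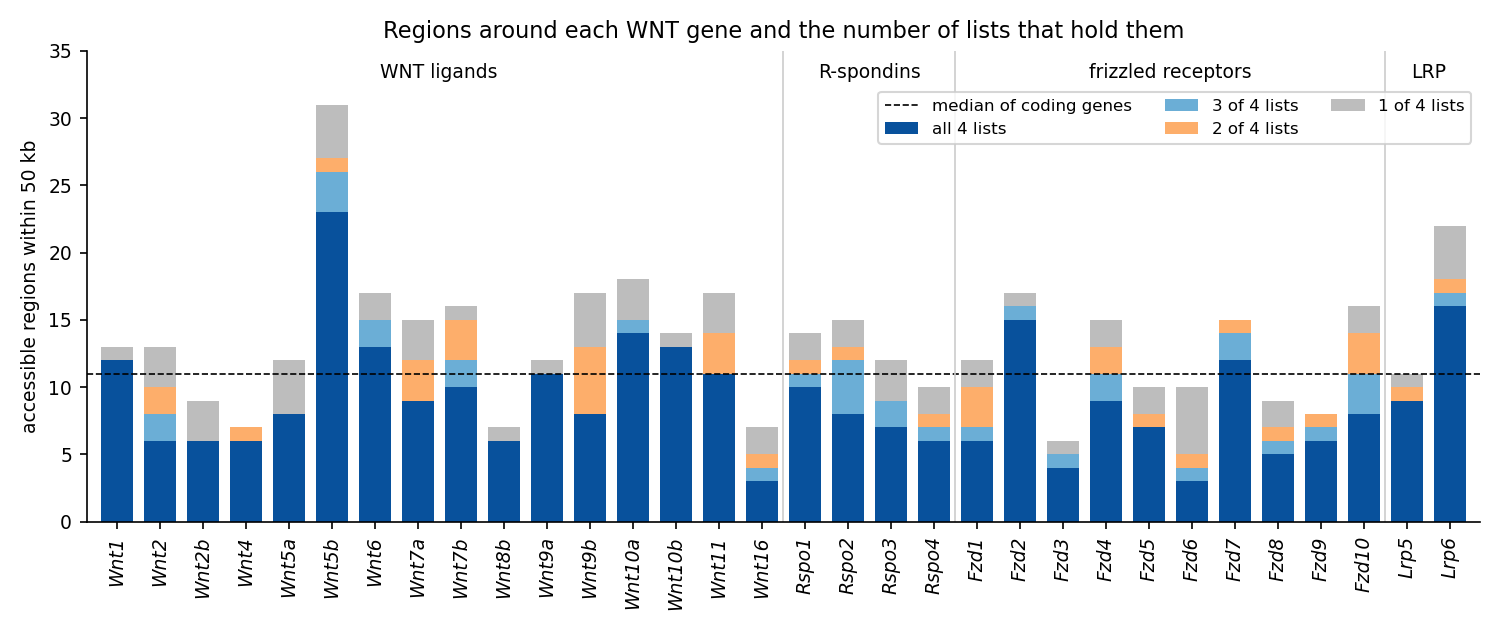
Number of accessible regions within 50 kb of each gene (bars), divided by how many of the 4 lists hold a peak there. *Wnt5b* has 31 regions and *Lrp6* 22, and the dashed line marks the median of 11 for protein-coding genes.

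Of the 399 regions, 266 had a peak in all 4 lists (66.7%, 95% Wilson interval 61.9% to 71.1%), against 56.6% of all regions and 62.1% of the 117578 regions within 50 kb of any protein-coding gene. The intervals cover counting error only, and neighbouring regions are not independent. The lists held 342, 314, 319 and 323 of the 399. The SB-431542 list alone held 27 regions, and 11, 12 and 14 were held only by the acute, the prolonged and the chronic list. Only SB-431542 and 1 h Activin shared 13 regions, only 8 h Activin and untreated cells shared 13, and 5 were in the 3 signalling lists and absent with SB-431542. These counts by list were not computed over all regions. The lists also differed in length, from 209212 peaks at 8 h Activin to 234758 with SB-431542. The counts by list therefore do not set these genes apart. By role, 68.5% of 197 ligand regions, 60.8% of 51 R-spondin regions, 63.6% of 118 frizzled regions and 75.8% of 33 LRP regions were in all 4 lists.

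By position, 56 regions overlapped a promoter, 35 of them a promoter of one of the 32 genes, and 55 of the 56 were in all 4 lists. The centre of 127 regions lay in an intron, of 17 in an exon and of 199 between genes, and 59.1%, 70.6% and 62.3% of these were in all 4 lists. All 34 regions that covered a start site of one of the 32 genes were in all 4 lists, against 69.9% of 73 regions up to 10 kb from it, 69.1% of 123 at 10 to 25 kb and 56.8% of 169 at 25 to 50 kb. The same shares by position and distance were not computed for protein-coding genes at large. They therefore do not set the 32 genes apart.

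Acute signalling was compared with inhibition first. At 1 h Activin 18 of the 399 regions were gained, with a peak there and none with SB-431542 (4.51%, interval 2.87% to 7.02%), against 9.48% of all regions, and the interval lay below that share. With peaks of column 9 of at least 5 only, the shares were 2.85%, against 3.73%. Among regions within 50 kb of any protein-coding gene 5.82% were gained, which lies within the interval. Lost regions numbered 46 (11.5%, 8.76% to 15.0%), against 9.86%. Of the 266 shared regions 29 were higher by more than 10 percentile points (10.9%, 7.70% to 15.2%), against 11.3%, and 30 were lower (11.3%, 8.01% to 15.6%), against 12.1%. Near any protein-coding gene 10.4% were lost, and of the shared regions 8.44% were higher and 11.7% lower. These shares lay within the intervals too.

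At 8 h Activin 31 regions were gained (7.77%, 5.53% to 10.8%), against 8.12% of all regions, and 54 were lost (13.5%, 10.5% to 17.2%), against 17.1%. Of the shared regions 39 were higher (14.7%, 10.9% to 19.4%), against 18.7%, and 53 were lower (19.9%, 15.6% to 25.1%), against 18.5%. In untreated cells 33 regions were gained (8.27%, 5.95% to 11.4%), against 10.6%, and 52 were lost (13.0%, 10.1% to 16.7%), against 15.6%. Of the shared regions 40 were higher (15.0%, 11.2% to 19.8%), against 19.9%, and 55 were lower (20.7%, 16.2% to 25.9%), against 18.8%. For the higher regions of untreated cells the upper end of the interval lay just under the share of all regions, and 16.0% of the shared regions near coding genes were higher. All other shares at 8 h and in untreated cells had intervals that held the share over all regions.

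**Figure D3:**
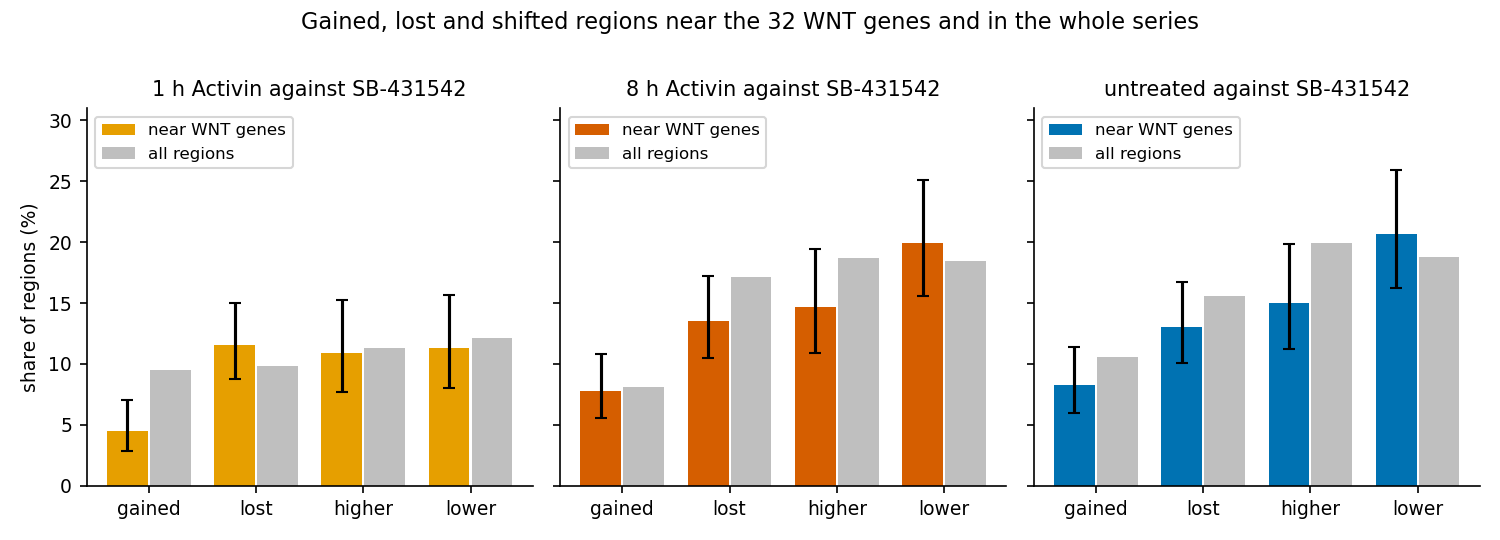
Share of regions gained, lost, higher or lower against SB-431542 (vertical axis, %), near the 32 genes (coloured, with 95% Wilson intervals) and over all regions (grey). The grey bar lies above the interval for gained regions at 1 h Activin (4.51%, against 9.48%) and just above it for the higher regions of untreated cells (15.0%, against 19.9%).

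Calls near promoters and away from them differed in how they held when column 7 was replaced. The other measures are not independent of column 7. In a region with 1 peak in each list the weighted mean has the same value as column 7. The estimated pileup is computed from column 7 with column 8 as if a peak were a single site, and its error in wide peaks was not tested. With the weighted mean, column 9 (the −log10 q-value) and the estimated pileup used in turn, a shift of more than 10 points in the same direction was found by all 4 measures in 11 of 29 higher and 16 of 30 lower regions at 1 h Activin. The counts were 24 of 39 and 31 of 53 at 8 h Activin and 24 of 40 and 35 of 55 in untreated cells. In regions that overlapped a promoter, no rise was held in any state (0 of 6, 0 of 2 and 0 of 3), and 1 fall was held at 8 h Activin (of 3) and 1 in untreated cells (of 6). With the estimated pileup alone, 4.14% of the shared regions near the 32 genes were higher at 1 h Activin, against 8.58% of all shared regions, and 9.77% were higher in untreated cells, against 16.5%. All 4 measures held a rise in 6.57%, 13.4% and 14.3% of all shared regions and in 4.14%, 9.02% and 9.02% of those near the 32 genes. They held a fall in 7.28%, 13.3% and 14% of all shared regions and in 6.02%, 11.7% and 13.2% of those near the 32 genes. Shares by the estimated pileup or by all 4 measures were not computed for the regions near any protein-coding gene.

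**Figure D4:**
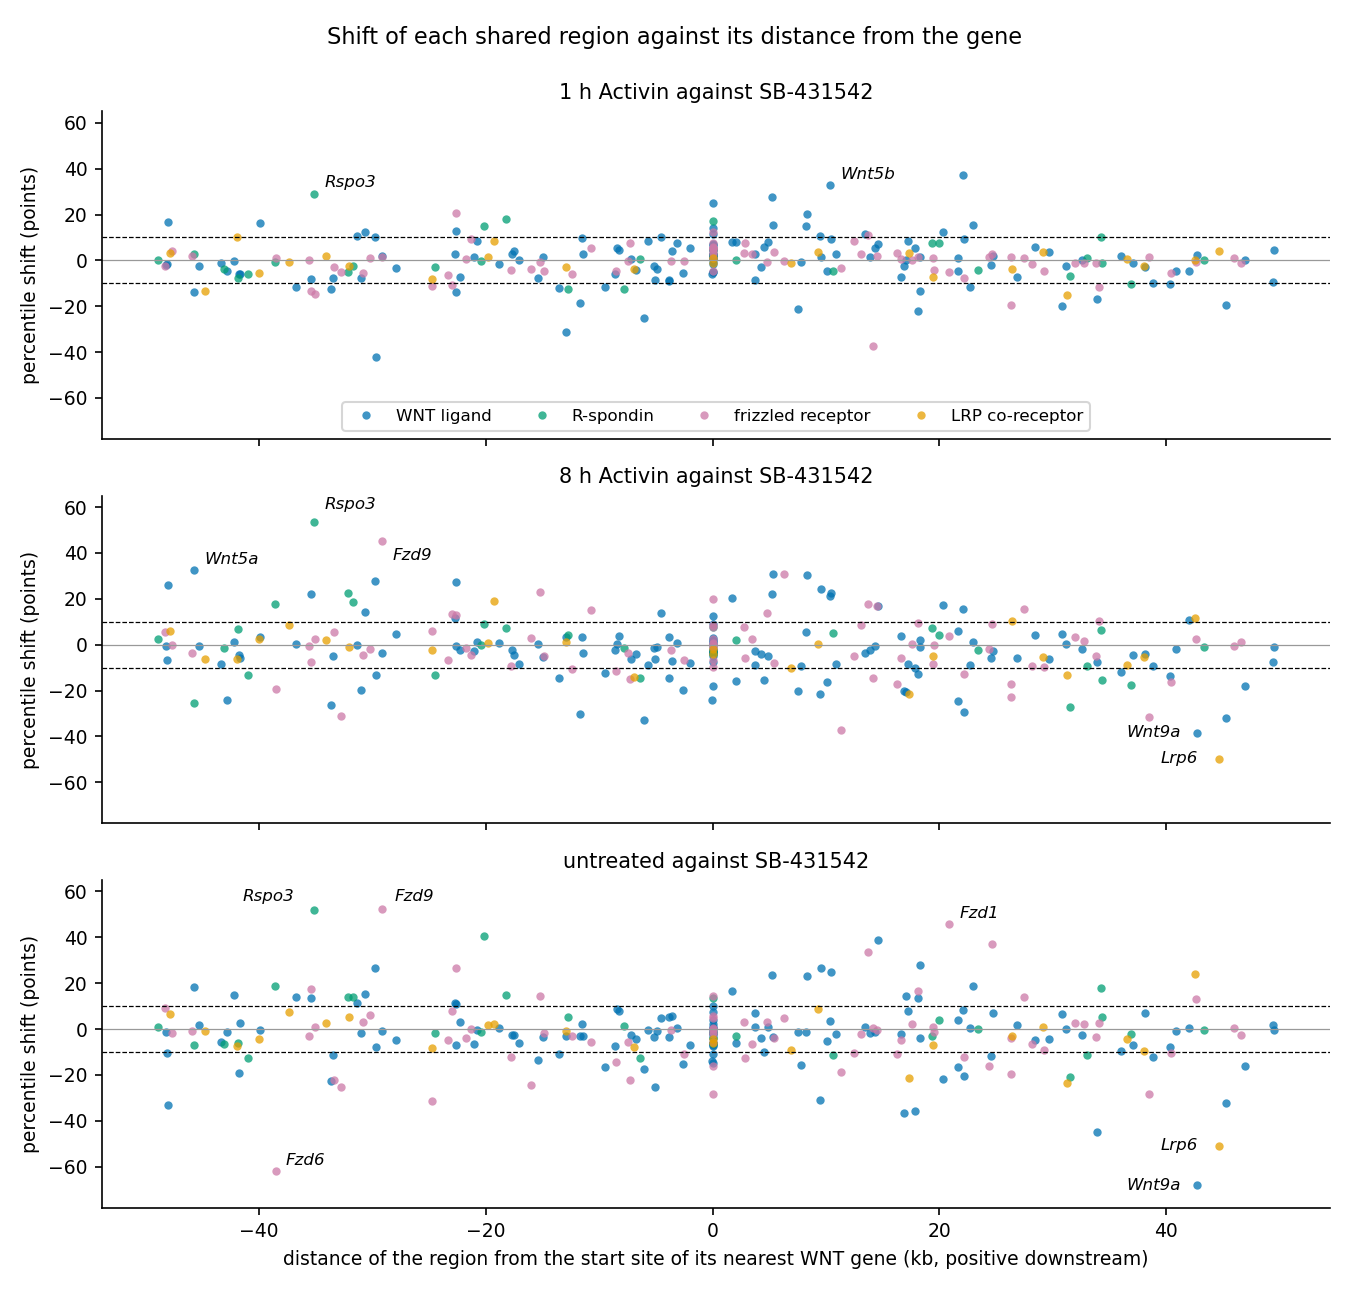
Percentile shift against SB-431542 (vertical axis, points) of each of the 266 shared regions against its distance from the start site of the nearest of the 32 genes (horizontal axis, kb), by role. Dashed lines mark 10 points. The regions of *Rspo3* and *Fzd9* upstream stand highest at 8 h and in untreated cells. Those of *Wnt9a* and *Lrp6* stand lowest in both, joined by that of *Fzd6* in untreated cells.

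The region 35.2 kb upstream of *Rspo3* (chr10:29571027-29572278, between genes) was among the 3 largest rises in every comparison. Its column 7 was 1.78, 2.20, 3.04 and 2.97, and its percentile 8.41, 37.6, 62.0 and 60.5. The 3 signalling states were all above SB-431542, by 29.1, 53.6 and 52.1 points, and the values at 8 h and in untreated cells were close to each other. With the estimated pileup the shifts were 21.9, 51.1 and 49.2 points. The promoter of *Rspo3* shifted by 4.62, -4.22 and -3.83 points over the same comparisons. This is the region whose centre is printed above with a FOX motif, and its 1252 bp held 1 match of GTAAACA in all.

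The region 29.2 kb upstream of *Fzd9* (chr5:135280200-135280970, between genes) had column 7 of 1.61, 1.64, 2.51 and 2.73. Its percentile was 1.2, 2.50, 46.3 and 53.6. It was low in the inhibited and acute states and higher by 45.1 points at 8 h Activin and by 52.4 points in untreated cells. *Fzd9* also had a region 14.1 kb downstream, in an intron of *Baz1b*, with 3.43, 2.08, 2.74 and 3.32. There the 1 h Activin value was the lowest, 37.5 points under SB-431542, and untreated cells differed from SB-431542 by 0.32 points.

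At *Wnt5b* the largest rises came early. The region 10.4 kb downstream of a start site, in an intron of the gene (chr6:119437717-119439019), had 2.54, 3.74, 3.26 and 2.60, highest at 1 h Activin and lowest with SB-431542. Its shifts were 32.9, 21.2 and 3.66 points. With the estimated pileup they were 42.0, 41.2 and 17.5 points. A region 22.1 kb downstream, nearer to the start site of *Adipor2*, had 1.74, 2.33, 2.01 and 1.89 and shifts of 37.2, 15.7 and 8.16 points, and its shift at 1 h Activin was 18.8 points with the estimated pileup. Of the 23 shared regions of *Wnt5b*, 5, 6 and 4 were higher and 2, 6 and 3 were lower in the 3 signalling states.

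The region 45.7 kb upstream of *Wnt5a*, in an intron of *Erc2*, had 2.52, 2.09, 3.88 and 3.10. It was highest at 8 h Activin and lowest at 1 h Activin, with shifts of -13.9, 32.5 and 18.5 points. At *Fzd1* a region 20.8 kb downstream had 1.75, 1.62, 1.83 and 2.71, and only untreated cells stood apart, by 45.7 points.

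The largest falls lay downstream of *Lrp6* and *Wnt9a* and upstream of *Fzd6*. The region 44.6 kb downstream of the *Lrp6* start site, in an intron of the gene (chr6:134520236-134522301), had 3.08, 3.02, 1.84 and 1.82. It was level with SB-431542 at 1 h Activin (4.07 points) and lower by 49.7 points at 8 h Activin and by 51.0 points in untreated cells. The region 42.7 kb downstream of *Wnt9a*, a ligand of joint formation, had 3.66, 3.52, 2.23 and 1.72, with shifts of 2.45, -38.5 and -68.2 points. Its nearest coding start site is that of *Prss38*. The region 38.5 kb upstream of *Fzd6*, nearest to *Baalc*, had 5.85, 5.72, 3.69 and 2.20, with shifts of 1.2, -19.5 and -62.1 points. In each of these 3 regions the inhibited and acute values were close, and untreated cells were the lowest.

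**Figure D5:**
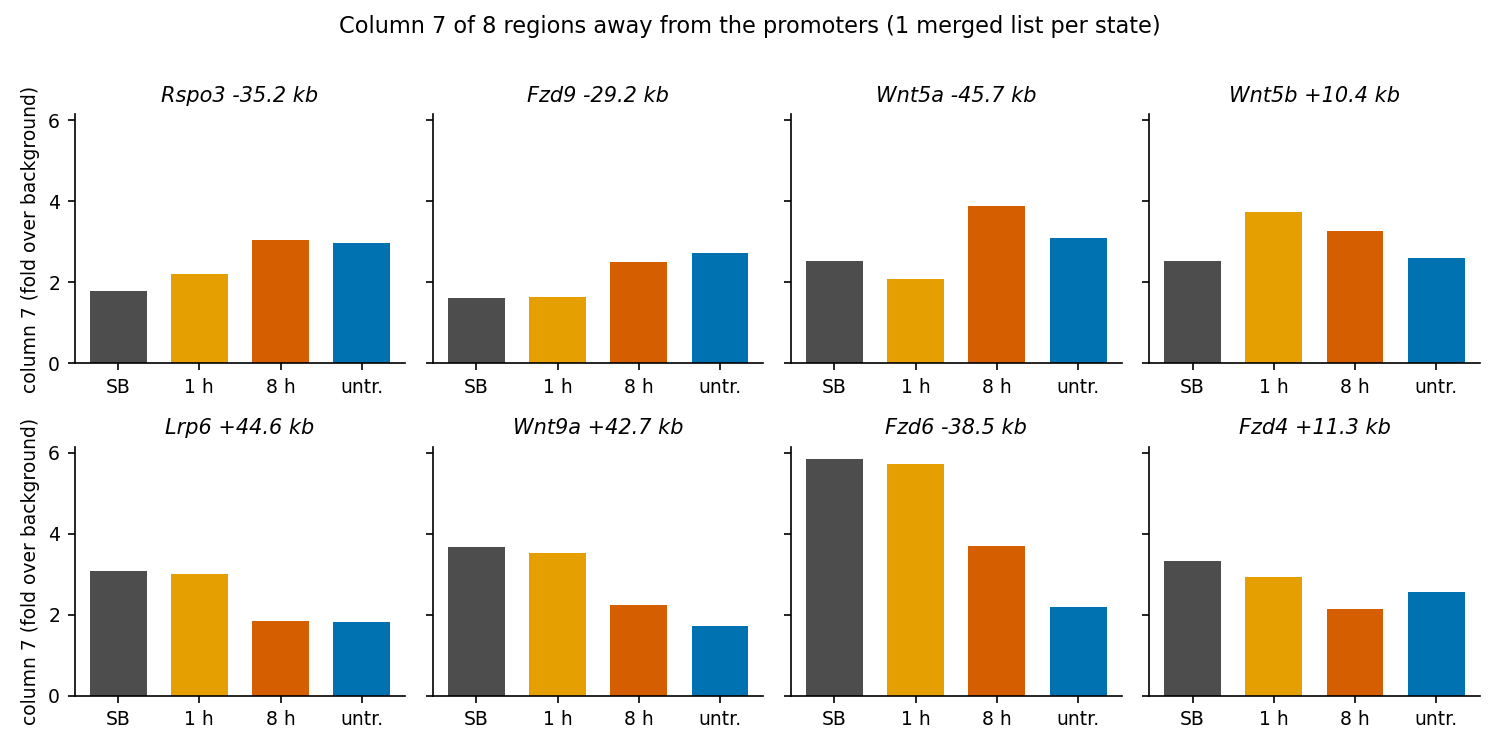
Column 7, the fold over the local background (vertical axis), of 8 regions away from the promoters in the 4 states, with 1 merged list per bar and no error. The upper 4 regions are higher in at least one signalling state than with SB-431542 (*Rspo3*, 3.04 at 8 h Activin, against 1.78), and the lower 4 are lower at 8 h and in untreated cells (*Fzd6*, 2.20 in untreated cells, against 5.85).

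A region 11.3 kb downstream of *Fzd4* had 3.32, 2.93, 2.13 and 2.55, with shifts of -3.38, -37.4 and -18.9 points. At 1 h Activin 2 of the 3 largest falls lay near *Wnt9a*. A region in an intron of *Wnt3a*, 29.7 kb upstream, had 2.62, 1.72, 2.25 and 2.37 and a shift of -42.2 points at 1 h Activin. The promoter region of *Wnt3a*, 12.9 kb upstream of *Wnt9a*, had 3.36, 2.17, 3.45 and 3.12. Its shift of -31.4 points at 1 h Activin was 0.29 with the weighted mean and -9.45 with the estimated pileup.

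Among gained regions, the 2 with the highest column 9 in each comparison were narrow. A region 31.2 kb upstream of *Wnt7b* (273 bp) had no peak with SB-431542 and column 7 of 2.39 at 1 h, 2.40 at 8 h and 2.25 in untreated cells. The others were in fewer lists or lower. A region 38 kb upstream of *Fzd10* was found only at 1 h Activin (2.28), and a region 5.53 kb downstream of *Fzd8* only at 8 h Activin (1.73). A region 7.33 kb upstream of *Fzd10*, in an intron of *Fzd10os*, had 1.5, 1.69 and 1.95 in the 3 signalling lists, and a region 15.1 kb upstream of *Fzd4*, in an intron of *Tmem135*, had 1.80 at 8 h and 2.52 in untreated cells.

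Among lost regions, a region 9.46 kb upstream of *Fzd1* had 3.54 with SB-431542, 2.98 at 1 h and no peak at 8 h Activin or in untreated cells. A region 40.8 kb downstream of *Fzd4* had the same pattern, with 2.99 and 2.58. Both were the lost regions with the highest column 9 in 2 comparisons. At 1 h Activin the lost regions with the highest column 9 were one 23.1 kb downstream of *Rspo1* (2.79 with SB-431542, 2.13 at 8 h and 2.64 in untreated cells) and one 15.6 kb upstream of *Fzd5*, a receptor of the eye and yolk sac (2.52 with SB-431542 and 2.02 at 8 h).

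The other genes of the pathway were described by the same measures. All 21 had a promoter open in every list, among them *Porcn* and *Wls*, which lipidate and export WNT proteins, the R-spondin receptors *Lgr4*, *Lgr5* and *Lgr6*, the receptor ligases *Znrf3* and *Rnf43*, the alternative receptors *Ror1*, *Ror2*, *Ryk* and *Ptk7*, and the signal transducers *Dvl1*, *Dvl2* and *Dvl3*. Their median promoter percentile with SB-431542 was 72.0, between the 64.6 of the 32 genes and the 85.5 of coding genes. Of their 194 shared regions 16, 22 and 26 were higher and 22, 28 and 28 were lower in the acute, prolonged and chronic states. The higher shares were 8.25%, 11.3% and 13.4%, against 11.3%, 18.7% and 19.9% of all shared regions. Of the shared regions within 50 kb of any protein-coding gene, 8.44%, 14.5% and 16.0% were higher. The lower shares were 11.3%, 14.4% and 14.4%, against 12.1%, 18.5% and 18.8% of all shared regions and 11.7%, 17.5% and 17.5% near coding genes. In the 4 states the promoter percentile was 46.8, 48.3, 44.0 and 40.1 for *Wnt3*. It was 67.3, 35.8, 70.7 and 64.3 for *Wnt3a* and 87.2, 89.7, 90.4 and 87.4 for *Wnt8a*. At the promoter *Wnt3a* shifted by -31.4 points in the acute state, with values by other measures given above. *Lgr6* was lower by 22.0 points at 8 h Activin and by 13.3 points in untreated cells, and *Dvl2* was higher by 10.9, 11.4 and 11.7 points in the 3 signalling states. No other gene of the 21 shifted by more than 10 points there. Such a shift was found in 16.5% of protein-coding genes with a promoter region in all 4 lists. The *Lgr6* and *Dvl2* shifts are by fold enrichment alone and were not compared with the other measures of height.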

How the data were processed

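ATAC-seq was done in P19 cells in 4 signalling states with 2 biological replicates each. The labels list 12 libraries per state, 6 per replicate. The study's methods describe a single library chosen for sequencing per replicate and state, so these entries may not be separate libraries. By the submitters' notes and the study's methods, the authors used cutadapt 1.9.1 for trimming and BWA 0.6.2 for alignment to mm10, merged the alignments of a state with Picard, removed duplicates and called broad peaks with MACS2 2.1.1.20160309. bedtools 2.26.0 is also listed. In the deposited lists column 7 is a fold enrichment, a ratio to the local background, columns 8 and 9 are the −log10 p-value and −log10 q-value given by the authors' peak caller, and the deposited score of column 5 was not used. The lists hold no read counts, and merged replicates give no error between samples. The study's methods state a range of reads per merged sample but no value per state.

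Peaks were merged into regions at an overlap of at least 1 bp. The highest column 7 of a region was taken as its percentile among regions in all 4 lists, and a change of more than 10 points was called a shift. Pileup and local background were estimated from columns 7 and 8, with a peak treated as a single site of a Poisson model. Column 7 is a mean over the peak, so the estimates are approximate. Their error in wide or uneven peaks was not tested, nor did the simulated data hold such peaks. Shares carry 95% Wilson intervals. Start sites, promoters and gene classes came from RefSeq GRCm38.p6 (45756 curated transcripts), and 21 of the 32 genes had a promoter sequence. The 32 genes, the gene lists and the rules were chosen with earlier results of these data known.

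Genes were named where the promoter was not open in all lists, where the promoter was the highest or lowest of its role with SB-431542 or shifted by more than 10 points, and where the number of regions was the highest or lowest of its role. Per comparison, the 3 largest rises, the 3 largest falls and the 2 gained and 2 lost regions with the highest column 9 were named with their gene. *Fzd4*, *Fzd7*, *Rspo4*, *Wnt5a*, *Wnt16* and the promoter of *Lrp5* were added to complete the roles. Alternatives changed the promoter rule, merging, window, peak threshold, list length, measure of height and shift threshold. Python 3.11.15, numpy 2.4.6, pandas 2.3.3, scipy 1.17.1, statsmodels 0.14.6 and matplotlib 3.10.9 were used, and the functions were tested on simulated data.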

Additional observations from a re-analysis of the deposited data

Results flagged for a closer look

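In 12 of the 266 shared regions (4.51%, against 4.99% of the 162505 shared regions in all) the percentile moved by more than 10 points in one direction in one signalling state and by more than 10 points in the opposite direction in another, each against SB-431542. With 1 merged list per state the difference between states was not tested, and all comparisons share the SB-431542 list.

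At 7 regions the 1 h Activin value was lower and a later or chronic state higher. The shift of the region 23.0 kb upstream of *Fzd7* was -10.9 points after 1 h and 13.3 after 8 h of Activin. Near *Fzd2* a region 35.4 kb upstream had -13.4 at 1 h and 17.6 in untreated cells, and a region 34.0 kb downstream had -11.8 after 1 h and 10.2 after 8 h of Activin. The region 45.7 kb upstream of *Wnt5a* had -13.9, 32.5 and 18.5 in the acute, prolonged and chronic states. An intron region 18.3 kb downstream of *Wnt2*, a ligand of lung development, had -13.4 at 1 h and 27.8 in untreated cells, and a region 36.8 kb upstream of *Wnt11* had -11.7 at 1 h and 14 in untreated cells. An exon region 18.1 kb downstream of *Wnt9b* was lower in both Activin lists, with -22.3 at 1 h and -12.7 at 8 h, and had 13.5 in untreated cells.

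At the other 5 the order differed. A region 48.0 kb upstream of *Wnt9b*, in an intron of *Wnt3*, had 16.6, 26.1 and -33.1 in the acute, prolonged and chronic states. The region 20.3 kb downstream of *Wnt8b* had 12.3, 17.4 and -21.7, and the region 9.45 kb downstream of *Wnt10b* had 10.6, -21.5 and -30.8. An intron region 17.1 kb downstream of a *Wnt5b* start site had -20.6 at 8 h and 14.6 in untreated cells. The upstream promoter region of *Wnt11* had 25.2, 12.5 and -11.0, with a change in the number of peaks. The signs were the same under all 3 other measures of height in 9 of the 12 regions, and under 2 of the 3 for *Wnt10b*, *Wnt5b* and the *Wnt11* promoter. Except at the *Wnt11* regions each list had 1 peak, so that the weighted mean repeats column 7 there.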

How the results depend on the processing

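No paired analysis was possible because each list merges both replicates of its state, and no replicate could be left out for the same reason. The promoter count stayed at 30 under 4 of 5 alternatives and was 15 when the centre of a peak had to lie in the window. Of the shares near the 32 genes, 68 of 78 alternatives kept the side of the share over all regions on which the main value lay. With column 9 of at least 5, gained regions were 2.85% after 1 h (all regions 3.73%) and 5.38% after 8 h of Activin (6.70%), and after 8 h 18.0% were lost (21.5%) and 26.3% lower (20.9%). With lists of equal length 11.1% were gained at 8 h (12.7%). Within 10 kb there were 107 regions, with 79.4% in all 4 lists, 1.87% gained, 8.41% lost and 4.71% lower at 1 h, 9.35% lost at 8 h, and 8.41% lost and 8.24% higher in untreated cells, set against the same shares of all regions as in the report. By column 9, 6.39% were higher at 1 h (9.72%). By the estimated pileup 4.14% were higher (8.58%) and 7.89% lower (8.61%) at 1 h, 12.4% lower at 8 h (15.1%), and 9.77% higher (16.5%) and 15.4% lower (15.8%) in untreated cells. With a threshold of 20 points the higher and lower shares were 2.63% (2.11%) and 2.26% (2.42%) at 1 h, 6.39% (7.12%) and 7.89% (6.95%) at 8 h, and 5.64% (7.58%) and 8.65% (7.75%) in untreated cells, so that the higher share at 1 h lay above that of all regions. The cause of these changes was not tested.

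The single shifts of more than 10 points were recomputed with 3 other measures of height, giving 129 values. Of these 96 lay within 10 points of the main value, 23 lay further off with the same sign and 10 reversed, all 10 at promoters. A shift of more than 10 points in the same direction was kept in 13 of 48 values at promoters and in 76 of 81 elsewhere. The regions elsewhere had 1 peak in each list, where the weighted mean repeats column 7. The counts at promoters and elsewhere are therefore not like for like. By the estimated pileup *Wnt6* became -0.58 at 1 h Activin, *Wnt7b* -1.68 in untreated cells, *Fzd9* -2.30 at 8 h and -2.80 in untreated cells, and the downstream *Wnt11* promoter 0.12 at 8 h Activin. The *Rspo1* promoter in untreated cells became -18.5 by the weighted mean, -0.51 by column 9 and -7.01 by the pileup. By the weighted mean the upstream *Wnt11* promoter became -15.3 at 8 h Activin and the *Wnt3a* promoter region near *Wnt9a* 0.29 at 1 h Activin. The depth of each list is not known beyond the range stated by the study, so what it limits could not be measured.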
